A study of Mus musculus with 12 samples.

Results

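Gremlin and the BMP pathway were followed here through 10 genes of the 45859 in the deposited tables, chosen by name for their roles: the secreted antagonist Grem1, the ligands Bmp2, Bmp4 and Bmp7, the receptors Bmpr1a and Bmpr2, the inhibitory Smad gene Smad6, and the target genes Id1, Id2 and Id3. RNA-Seq was performed on lens capsules with their attached lens epithelial cells (LCs) from mice 2 months old, taken either at 0 h or at 24 h post cataract surgery (PCS), a mouse model in which the lens fibers are removed and the capsule stays behind. The 4 groups held 3 libraries each: WT (C57BL/6) at either time and β8ITG-cKO at either time, the latter with a lens-restricted deletion of the β8 integrin gene Itgb8 through the MLR10-Cre transgene. All groups had undergone surgery, each library pooled several capsules, and β8ITG-cKO mice were of a mixed C57BL/6, 129S1/Sv background, so that strain and genotype cannot be told apart.

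Bone morphogenetic proteins (BMPs) are secreted ligands of the TGF-β superfamily that bring type I receptors such as Bmpr1a together with type II receptors such as Bmpr2. The active receptors phosphorylate Smad1, Smad5 and Smad9, which join Smad4 and turn on targets such as the Id genes, whose products bind E proteins and keep them from DNA, and Smad6, which feeds back to inhibit the pathway. Gremlin-1 binds BMP ligands outside the cell and holds them away from their receptors. In the eye, BMP signaling is known for its part in lens induction and fiber differentiation, and in epithelial cells it is often described as opposing TGF-β-driven mesenchymal change.

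Of the 10 genes, 4 lie on chromosome 2 (mm10), namely Grem1 (chr2:113748674-113758785), Bmp2 (chr2:133552159-133562896), Bmp7 (chr2:172868012-172940321) and Id1 (chr2:152736234-152737410). The promoters of Grem1 and of the genes that fell together in both genotypes, Smad6, Id2 and Id3, are shown because these 4 genes carry the time course described next. Each sequence runs from 250 bases before to 50 bases after the RefSeq start site (GRCm38.p6), 5′ to 3′ on the gene's strand, and lies at chr2:113758599-113758898 for Grem1 (minus strand), chr9:64022010-64022309 for Smad6 (minus strand), chr12:25096043-25096342 for Id2 (minus strand) and chr4:136143572-136143871 for Id3 (plus strand). Capitals mark GGCGCC, a motif known to bind BMP-activated Smads, and GTCT or its reverse complement AGAC, the short Smad-binding core.
Grem1: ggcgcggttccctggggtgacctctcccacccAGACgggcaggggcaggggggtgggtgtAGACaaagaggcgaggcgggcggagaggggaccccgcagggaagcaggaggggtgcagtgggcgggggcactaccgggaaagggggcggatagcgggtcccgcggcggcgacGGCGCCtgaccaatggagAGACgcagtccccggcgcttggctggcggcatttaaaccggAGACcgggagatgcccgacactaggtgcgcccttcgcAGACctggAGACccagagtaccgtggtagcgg
Smad6: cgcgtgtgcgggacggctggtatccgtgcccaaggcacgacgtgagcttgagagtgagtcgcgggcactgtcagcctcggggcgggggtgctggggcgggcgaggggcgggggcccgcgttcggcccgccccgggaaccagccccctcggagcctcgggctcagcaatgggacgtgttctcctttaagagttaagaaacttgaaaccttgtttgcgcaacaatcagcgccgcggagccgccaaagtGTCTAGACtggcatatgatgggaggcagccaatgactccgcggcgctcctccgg
Id2: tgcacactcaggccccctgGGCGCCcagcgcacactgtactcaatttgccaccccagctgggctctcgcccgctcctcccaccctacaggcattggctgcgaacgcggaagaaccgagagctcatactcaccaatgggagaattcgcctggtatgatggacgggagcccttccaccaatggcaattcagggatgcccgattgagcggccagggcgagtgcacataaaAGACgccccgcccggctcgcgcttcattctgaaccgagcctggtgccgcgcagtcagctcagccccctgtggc
Id3: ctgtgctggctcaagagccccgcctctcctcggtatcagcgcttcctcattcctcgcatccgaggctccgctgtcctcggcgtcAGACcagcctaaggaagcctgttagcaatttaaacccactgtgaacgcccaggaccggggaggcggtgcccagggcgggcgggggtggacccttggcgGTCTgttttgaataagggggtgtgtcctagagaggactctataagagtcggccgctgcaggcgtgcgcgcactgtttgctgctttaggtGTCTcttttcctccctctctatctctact
Counted on both strands, GGCGCC occurred 1 time in the windows of Grem1 and Id2 and was not in those of Smad6 and Id3, and 11.9% of 32851 promoters of this length held it. GTCT or AGAC occurred 6 times in the Grem1 window, 3 times in Id3, 2 times in Smad6 and 1 time in Id2, against a median of 2 and a share of 88.0% of all promoters with at least 1. In Smad6 the GTCT and the AGAC lay side by side as GTCTAGAC, a palindrome held by 0.213% of promoters. RefSeq windows were matched for 7 of the 10 genes, and of the others Bmp4 held GTCT or AGAC 2 times, Bmpr1a 1 time with 1 GGCGCC, and Bmpr2 1 GGCGCC alone.

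Values were FPKM, a level per length of transcript and per sequenced fragment of the library, so that levels of different genes can be set side by side. Differences were tested with limma-trend on log2(FPKM + 1) over all genes that averaged 0.5 FPKM or more in the libraries compared, and a gene was called at a Benjamini-Hochberg adjusted p of at most 0.05. Summed FPKM per library ran from 446531 to 740140, with 36.0% to 49.6% of it in the 10 highest genes, and relative depth read from the lowest values ran from 0.871 to 1.10; the number of reads is unknown. Fewer cells of a type and less RNA per cell cannot be told apart in these bulk samples. Lens epithelial markers were high in every library (summed 11517 to 43033 FPKM over 6 genes). Gene-level Itgb8 was at 7.26 to 10.8 FPKM in WT and 4.58 to 7.31 FPKM in β8ITG-cKO at 0 h, and at 8.38 to 9.58 and 9.28 to 11.8 FPKM at 24 h. The ranges overlapped at both times, so this value did not separate the genotypes. A gene-level value also counts transcripts that lack the deleted exon and does not check the labels. The 12 retina markers, all detected, summed to 386, 1322 and 159 FPKM in WT and to 204 to 377 FPKM in β8ITG-cKO at 0 h, and to 83.9 to 155 FPKM in WT against 941 to 1118 FPKM in β8ITG-cKO at 24 h.

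At 0 h PCS Id3, Id2 and Id1 had the highest means of the 10 genes in WT, and Grem1 was near 0. In WT LCs at 0 h PCS the order of mean levels was Id3 (46.5 FPKM), Id2 (32.5), Id1 (26.2), Bmp7 (18.5), Bmpr2 (12.8), Bmpr1a (12.8), Bmp2 (11.4), Smad6 (7.12), Bmp4 (3.41) and Grem1 (0.575). Neighbors whose library ranges overlapped in that order were Id2 with Id1, Bmpr2 with Bmpr1a, and Bmpr1a with Bmp2. At 24 h PCS Grem1 had moved from last to first, at a mean of 112 FPKM ± 18.0 (SD, n = 3), and its range did not overlap that of the next gene, Id3, at 20.0 FPKM ± 3.41. Grem1 was again first in β8ITG-cKO LCs at 24 h, at 39.7 FPKM ± 20.9 (SD, n = 3), but its range overlapped that of Bmp2, at 21.5 FPKM ± 7.97. The other 9 genes were above 0 in every library.

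**Figure D1:**
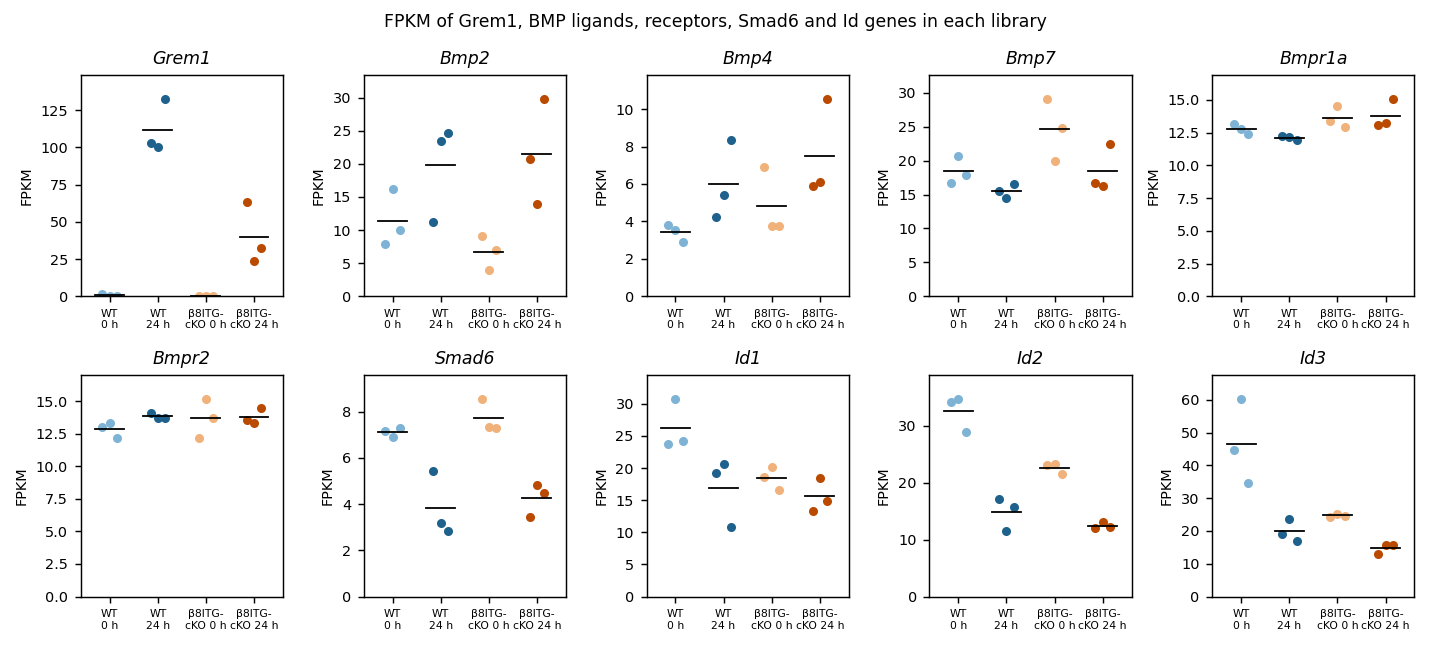
FPKM (vertical axes, from 0) of the 10 genes in each of the 12 libraries, by group, with 1 point per library and a line at the group mean. Grem1 goes from below 1.5 FPKM at 0 h to 99.9 FPKM or more in WT and 23.4 to 63.3 FPKM in β8ITG-cKO at 24 h, while Smad6, Id2 and Id3 lie lower at 24 h than at 0 h in both genotypes.

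The first question was what surgery did to the pathway in WT LCs. Of the 10 genes, all tested, Grem1 rose and 3 fell, namely Smad6, Id2 and Id3. Over all 15146 genes tested, 20.9% were called higher and 8.81% lower, and the median change was 0.16 on the log2 scale against -0.15 over the 10 genes. Because that median is above 0, the libraries were also rescaled to the same median, which took the median of all genes to -0.05 and the calls from 3165 higher and 1335 lower to 2195 higher and 2444 lower. The summed markers of lens fiber cells (6 genes, 1181 to 1429 FPKM at 0 h and 128 to 238 FPKM at 24 h), corneal stroma (4 genes, 25.4 to 30.0 and 7.83 to 18.1 FPKM) and neutrophils (6 genes, 0.327 to 0.580 and 4.10 to 6.46 FPKM) moved with this comparison too. The neutrophil genes Ly6g, Mpo and Elane were listed at 0 in all libraries, and the part of these markers in the result was not tested. The retina marker sum was lower at 24 h too, at 159 to 1322 FPKM at 0 h and 83.9 to 155 FPKM at 24 h. With that sum as a covariate, in 1 fit over all groups, the calls of Grem1, Smad6, Id2 and Id3 held and Bmp2 was called as well.

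Grem1 was at 1.40, 0.211 and 0.112 FPKM at 0 h, then 103, 99.9 and 132 FPKM at 24 h in WT. Every 24 h library stood far above every 0 h library. The change was 6.24 on the log2(FPKM + 1) scale (SE 0.29, limma-trend adjusted p = 6.24e-05) and stayed between 6.03 and 6.59 with any 1 library left out. The size of this change depends on the pseudocount, since the 0 h values are near 0, and it was 7.90 with a pseudocount of 0.1.

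Id2 and Id3, whose products hold E proteins inactive, fell in WT. Id2 was at 34.1, 34.6 and 28.9 FPKM at 0 h, then 17.2, 11.5 and 15.7 FPKM at 24 h, a mean 2.20-fold lower (log2 change -1.10, SE 0.18, limma-trend adjusted p = 0.00396). Id3 was at 44.7, 60.1 and 34.7 FPKM at 0 h, then 19.2, 23.7 and 17.0 FPKM at 24 h, a mean 2.33-fold lower (log2 change -1.16, SE 0.22, adjusted p = 0.00773). Neither gene's groups overlapped, and both calls held with any 1 library left out. Id1 was at 23.7, 30.7 and 24.2 FPKM at 0 h, then 19.2, 20.6 and 10.8 FPKM at 24 h. Its groups did not overlap either, but its log2 change of -0.65 did not pass the test (adjusted p = 0.0834), whereas it did after rescaling (-0.90, adjusted p = 0.0132) and in 1 fit over all groups (adjusted p = 0.0302).

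Smad6, the inhibitory Smad that is itself a BMP target, was at 7.16, 6.90 and 7.29 FPKM at 0 h, then 5.43, 3.18 and 2.84 FPKM at 24 h. The groups did not overlap, with WT 24 h replicate 1 the highest of the later libraries. The log2 change was -0.79 (SE 0.21, limma-trend adjusted p = 0.0266). The call was lost on leaving out WT 0 h replicate 1 (adjusted p = 0.0834), replicate 2 (0.0639) or replicate 3 (0.0744), or WT 24 h replicate 2 (0.0859) or replicate 3 (0.0518), and was kept without WT 24 h replicate 1 (0.00766). It was lost without the filter on low values as well (0.0676).

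By the test stated above none of the 3 ligands and neither receptor was called in WT, although some other settings called Bmp2, Bmp4 or Bmp7. Bmp2 was at 7.95, 16.2 and 10.01 FPKM at 0 h, then 11.1, 23.5 and 24.7 FPKM at 24 h, overlapping groups with a log2 change of 0.73 (limma-trend adjusted p = 0.145). Bmp4 was at 3.82, 3.53 and 2.89 FPKM and then at 4.25, 5.42 and 8.37 FPKM, groups that did not overlap, with a log2 change of 0.63 (adjusted p = 0.073). Both ligands passed the test without WT 24 h replicate 1, at adjusted p = 0.0341 for Bmp2 and 0.0401 for Bmp4, and Bmp2 also passed it with the retina marker sum as a covariate (log2 change 1.45, adjusted p = 0.0241). Bmp7 had a log2 change of -0.23 (95% interval -0.55 to 0.09, adjusted p = 0.241), which became -0.48 and passed the test after rescaling (adjusted p = 0.0332). Bmpr1a, the type I receptor, had a log2 change of -0.07 with a 95% interval of -0.35 to 0.21, and Bmpr2, the type II receptor, one of 0.10 with an interval of -0.19 to 0.38, which turned to -0.15 after rescaling.

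The same question was asked of β8ITG-cKO LCs. There 2 of the 10 genes, Grem1 and Bmp2, rose, where 35.4% of 15237 genes tested were called higher, and 3, Smad6, Id2 and Id3, fell, where 10.7% were called lower. The median change was 0.23 over all genes and -0.11 over the 10. After rescaling the calls over all genes went from 5394 higher and 1636 lower to 3217 higher and 3005 lower, and the median of all genes was -0.0012. At 24 h these libraries also held the highest retina marker sums of the study apart from WT 0 h replicate 2, and with that sum as a covariate the calls of Grem1, Id2 and Id3 held and those of Bmp2 and Smad6 did not. Lens markers were lower at 24 h, both epithelial (40277 to 43033 FPKM at 0 h and 11517 to 13980 FPKM at 24 h) and fiber (1213 to 1462 and 147 to 187 FPKM), as were those of corneal epithelium (4 genes, 536 to 911 and 139 to 190 FPKM) and corneal stroma (28.0 to 52.7 and 10.4 to 16.0 FPKM). Higher at 24 h were those of red blood cells (5 genes, 6.52 to 15.8 and 87.4 to 195 FPKM), vascular endothelium (5 genes, 0.994 to 1.70 and 5.47 to 7.38 FPKM), macrophages (6 genes, 5.95 to 8.85 and 11.8 to 25.4 FPKM) and neutrophils (0.231 to 0.740 and 1.52 to 3.97 FPKM), and their part in these changes was not tested.

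In β8ITG-cKO LCs at 0 h the tables listed Grem1 at 0 for replicates 1 and 2 and at 0.119 FPKM for replicate 3, and the 24 h libraries held 63.3, 23.4 and 32.5 FPKM. The spread at 24 h was wide, with replicate 1 at the top. The change was 5.17 on the log2(FPKM + 1) scale (SE 0.31, limma-trend adjusted p = 2.54e-05) and lay between 4.78 and 5.48 with any 1 library left out. With a pseudocount of 0.1 it was 8.13.

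Bmp2, a BMP ligand, was at 9.12, 4.03 and 7.02 FPKM at 0 h, then 20.8, 13.9 and 29.8 FPKM at 24 h in β8ITG-cKO LCs, a mean 3.19-fold higher without overlap (log2 change 1.54, SE 0.32, limma-trend adjusted p = 0.00574). The call held with any 1 library left out and was lost with the retina marker sum as a covariate (log2 change 0.78, adjusted p = 0.227). Bmp4 was at 6.91, 3.74 and 3.74 FPKM and then at 5.90, 6.08 and 10.5 FPKM, with overlap and a log2 change of 0.56 (adjusted p = 0.123), which passed the test only without β8ITG-cKO 0 h replicate 1 (0.0337). Bmp7 was at 29.1, 19.98 and 24.9 FPKM and then at 16.7, 16.3 and 22.4 FPKM. Its log2 change of -0.39 (adjusted p = 0.091) passed the test without β8ITG-cKO 0 h replicate 2 (0.0418), without β8ITG-cKO 24 h replicate 3 (0.0337) and after rescaling (-0.68, adjusted p = 0.00705).

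Smad6 was at 8.53, 7.33 and 7.31 FPKM at 0 h, then 3.46, 4.84 and 4.47 FPKM at 24 h in β8ITG-cKO, a log2 change of -0.74 (SE 0.13, limma-trend adjusted p = 0.00314). Id2 was at 23.1, 23.2 and 21.5 FPKM and then at 11.99, 13.1 and 12.2 FPKM, a mean 1.82-fold lower (log2 change -0.81, SE 0.09, adjusted p = 0.000277). Id3 was at 24.4, 25.3 and 24.5 FPKM and then at 12.99, 15.6 and 15.8 FPKM, a mean 1.67-fold lower (log2 change -0.71, SE 0.10, adjusted p = 0.00106). The calls of these 3 genes held with any 1 library left out, although the Smad6 call was lost with the retina marker sum as a covariate (adjusted p = 0.131). Id1 was at 18.6, 20.1 and 16.7 FPKM and then at 13.3, 18.5 and 14.9 FPKM, with overlap and a log2 change of -0.24 (adjusted p = 0.187), or -0.52 with adjusted p = 0.0179 after rescaling. Bmpr1a and Bmpr2 each had a log2 change of 0.02, with 95% intervals of -0.21 to 0.24 and -0.23 to 0.26, and both turned negative after rescaling, at -0.26 and -0.27.

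**Figure D2:**
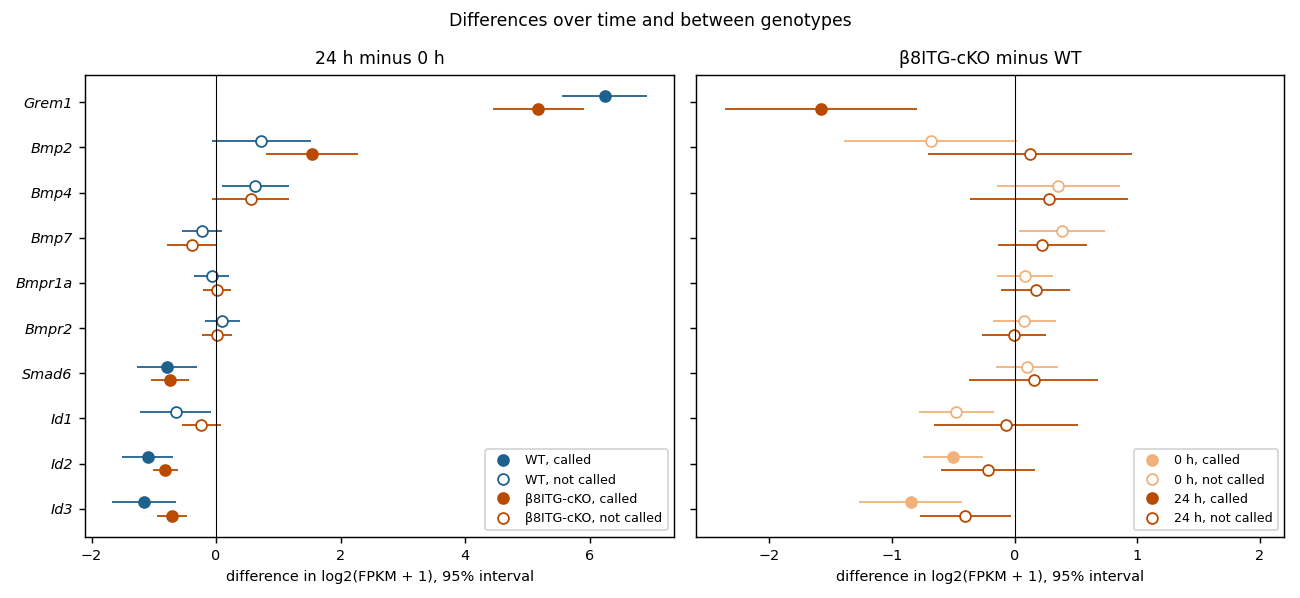
Differences in log2(FPKM + 1) with their 95% intervals from limma-trend for the 10 genes, 24 h minus 0 h in each genotype on the left and β8ITG-cKO minus WT at each time on the right, with filled points for an adjusted p of at most 0.05. Grem1 stands alone at 6.24 and 5.17 on the left and at -1.58 on the right, and Id2 and Id3 are below 0 in all 4 comparisons. Grem1 at 0 h did not pass the filter on low values and is not shown.

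The next question was whether β8ITG-cKO and WT LCs differed at each time. At 24 h PCS, Grem1 alone of the 10 genes was called lower, where 0.644% of 15366 genes tested were called lower, and none was called higher, where 5.64% were; rescaling moved the calls over all genes from 867 higher and 99 lower to 771 higher and 230 lower. At an unadjusted p under 0.05, limma-trend gave 2 genes lower, Grem1 and Id3, and 0 higher. How many of all genes passed that unadjusted threshold was not counted. The median difference was 0.06 over the 10 genes and 0.03 over all genes.

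Grem1 at 24 h was 2.81-fold lower in β8ITG-cKO than in WT LCs by the means, and the highest β8ITG-cKO library, at 63.3 FPKM, lay below the lowest WT library, at 99.9 FPKM. The log2 difference was -1.58 (SE 0.34, 95% interval -2.36 to -0.80, limma-trend adjusted p = 0.0348). The call is close to the threshold: it was lost without WT 24 h replicate 1 (adjusted p = 0.0669), replicate 2 (0.0859) or replicate 3 (0.0750) and without β8ITG-cKO 24 h replicate 2 (0.0989) or replicate 3 (0.130), and kept without β8ITG-cKO 24 h replicate 1 (0.0116). It was lost as well without the filter on low values (0.0976). With the retina marker sum as a covariate, in 1 fit over all groups, the call was lost too, at -1.74 (SE 0.66, adjusted p = 0.368). That fit called 3 genes of 15262. The fit over all groups without the covariate kept the call, at -1.58 (SE 0.34, adjusted p = 0.0129). At 24 h the retina marker sum itself did not overlap between the genotypes. In every one of these fits the direction stayed the same. Besides the retina markers, those of vascular endothelium (5 genes, summed 0.740 to 2.02 FPKM in WT and 5.47 to 7.38 FPKM in β8ITG-cKO) and of iris and ciliary pigment cells (6 genes, 27.5 to 33.3 and 12.7 to 23.9 FPKM) moved with this comparison. So did those of lens epithelium (6 genes, 17897 to 21534 FPKM in WT and 11517 to 13980 FPKM in β8ITG-cKO) and neutrophils (6 genes, 4.10 to 6.46 and 1.52 to 3.97 FPKM), and the part of these 4 lists in it was not tested.

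Id3 at 24 h was at 12.99 to 15.8 FPKM in β8ITG-cKO and at 17.0 to 23.7 FPKM in WT, without overlap, and its log2 difference of -0.40 did not pass the test (95% interval -0.77 to -0.03, limma-trend adjusted p = 0.212). Id1 differed by -0.07 and Id2 by -0.22, with 95% intervals of -0.65 to 0.51 and -0.60 to 0.16. Smad6 differed by 0.15 (-0.37 to 0.68). The ligand differences were 0.13 for Bmp2 (95% interval -0.70 to 0.96), 0.28 for Bmp4 (-0.37 to 0.92) and 0.23 for Bmp7 (-0.14 to 0.59). With the retina marker sum as a covariate these turned to -1.11, -0.27 and -0.11, none passing the test, and Id3 differed by -1.04 (adjusted p = 0.244). Bmpr1a was higher in every β8ITG-cKO library (13.1 to 15.1 FPKM) than in any WT library (11.9 to 12.3 FPKM), with a log2 difference of 0.17 that did not pass the test (adjusted p = 0.476), and Bmpr2 differed by -0.0043 (-0.27 to 0.26).

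At 0 h PCS 9 of the 10 genes passed the filter on low values. Grem1, with a mean below 0.5 FPKM, did not, and without the filter it differed by -0.51 (limma-trend adjusted p = 0.460). Id2 and Id3 were lower in β8ITG-cKO, where 2.75% of 14708 genes were called lower, and none was called higher, where 4.18% were. At an unadjusted p under 0.05, limma-trend gave 3 genes lower, Id1, Id2 and Id3, and 1 higher, Bmp7. The share of all genes at that unadjusted threshold was not counted, and the shares above are not comparable with it. The median difference was 0.08 over the 9 genes and 0.02 over all genes.

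Id2 at 0 h was at 21.5 to 23.2 FPKM in β8ITG-cKO and at 28.9 to 34.6 FPKM in WT, a mean 1.44-fold lower (log2 difference -0.50, SE 0.11, limma-trend adjusted p = 0.0345). Id3 was at 24.4 to 25.3 FPKM against 34.7 to 60.1 FPKM, a mean 1.88-fold lower (log2 difference -0.85, SE 0.18, adjusted p = 0.0348). Id1 was at 16.7 to 20.1 FPKM against 23.7 to 30.7 FPKM, and its log2 difference of -0.48 did not pass the test (adjusted p = 0.0734), but did after rescaling (0.0367). The ranges of these genes did not overlap between the genotypes, but the share of all genes without overlap was not counted. The Id2 call was lost without WT 0 h replicate 1 (adjusted p = 0.122) or replicate 2 (0.0711) and without β8ITG-cKO 0 h replicate 1 (0.0833), replicate 2 (0.0950) or replicate 3 (0.152). The Id3 call was lost without WT 0 h replicate 1 (0.104) and without β8ITG-cKO 0 h replicate 1 (0.0901), replicate 2 (0.0985) or replicate 3 (0.125). WT 0 h replicate 2, the library with the high retina marker sum, had the highest Id1 and Id3, and without this library the log2 difference was -0.36 for Id1, -0.46 for Id2 and -0.65 for Id3 (adjusted p = 0.0389). Without the filter on low values both calls were lost (0.0725 for Id2 and 0.109 for Id3), and that of Id2 was lost in 1 fit over all groups (0.0554) and with the retina marker sum as a covariate (0.0901). The summed red blood cell markers (5 genes) also moved with this comparison, at 68.0 to 153 FPKM in WT and 6.52 to 15.8 FPKM in β8ITG-cKO, as did those of corneal epithelium (4 genes), at 208 to 269 and 536 to 911 FPKM, and of iris and ciliary pigment cells (6 genes), at 19.9 to 84.0 and 11.5 to 15.5 FPKM, and their part in the result was not tested.

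Smad6 at 0 h was at 7.31 to 8.53 FPKM in β8ITG-cKO and 6.90 to 7.29 FPKM in WT, and its log2 difference was 0.10 (95% interval -0.15 to 0.35). Bmp7 was higher by 0.39 on the log2 scale in β8ITG-cKO, with overlap, and Bmp2 lower by 0.68, and neither passed the test (adjusted p = 0.171 and 0.221, limma-trend). Bmp4 differed by 0.36 (adjusted p = 0.355). Bmpr1a and Bmpr2 differed by 0.09 and 0.08.

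Whether the change over 24 h differed between the genotypes was tested directly with an interaction term over all 12 libraries. It called 0 of the 10 genes, where 6.83% of 15262 genes were called higher and 2.56% lower. At an unadjusted p under 0.05, a threshold at which the share of all genes was not counted, limma-trend gave 1 gene, Grem1. Its difference in change was -1.07 (SE 0.48, adjusted p = 0.196). The sign of that value rests on the pseudocount, since Grem1 was near or at 0 at 0 h, and it was 0.23 with a pseudocount of 0.1 (adjusted p = 0.904). For Id1, Id2 and Id3 the differences in change were 0.41, 0.28 and 0.45 (adjusted p = 0.455, 0.413 and 0.314). For Bmp2 it was 0.81 with a 95% interval of -0.33 to 1.95 (adjusted p = 0.382), so the call of Bmp2 in β8ITG-cKO but not in WT does not show that its change differed between them.

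Set against its ligands, Grem1 changed from a trace to an excess in WT. The summed FPKM of Bmp2, Bmp4 and Bmp7 was 33.2 ± 6.30 in WT and 36.1 ± 8.68 in β8ITG-cKO at 0 h, and 41.3 ± 9.52 and 47.5 ± 13.7 at 24 h (SD, n = 3). The ratio of Grem1 to this sum was 0.0492, 0.00523 and 0.00363 in WT at 0 h and 3.32, 2.30 and 2.66 at 24 h. In β8ITG-cKO it was 0, 0 and 0.00334 at 0 h and 1.46, 0.645 and 0.518 at 24 h. All 3 WT libraries at 24 h thus held more Grem1 than summed ligand per length, against 1 of the 3 β8ITG-cKO libraries, and the ranges did not overlap. Adding the other 10 BMP and GDF ligands to the sum gave means of 2.66 in WT and 0.839 in β8ITG-cKO at 24 h, close to the 2.76 and 0.874 from the 3 ligands. These are transcript ratios and say nothing of the amounts of protein.

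The shares of the 3 ligands in their sum are given as a description and were not tested. Bmp7 made up 51.2% to 58.7% of the summed ligands in WT and 64.5% to 72.0% in β8ITG-cKO at 0 h, and 33.3% to 50.3% and 35.8% to 45.0% at 24 h. Bmp2 went from 27.9% to 40.0% at 0 h to 36.0% to 54.2% at 24 h in WT, ranges that overlapped, and from 14.5% to 20.2% to 38.3% to 47.9% in β8ITG-cKO, ranges that did not. Bmp4 stayed the smallest share, at 8.73% to 16.8% over the 12 libraries. Bmp6, another BMP ligand and the highest of the remaining ones, was at 0.0136 to 0.303 FPKM at 0 h and 0.576 to 2.02 FPKM at 24 h. It rose by 0.84 on the log2 scale in WT (limma-trend adjusted p = 0.0235) and by 0.96 in β8ITG-cKO (adjusted p = 0.0140), and the WT call was lost without WT 0 h replicate 1 (0.0824) or replicate 3 (0.0711). Without WT 24 h replicate 2, or without β8ITG-cKO 24 h replicate 1, Bmp6 did not pass the filter on low values and could not be called.

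**Figure D3:**
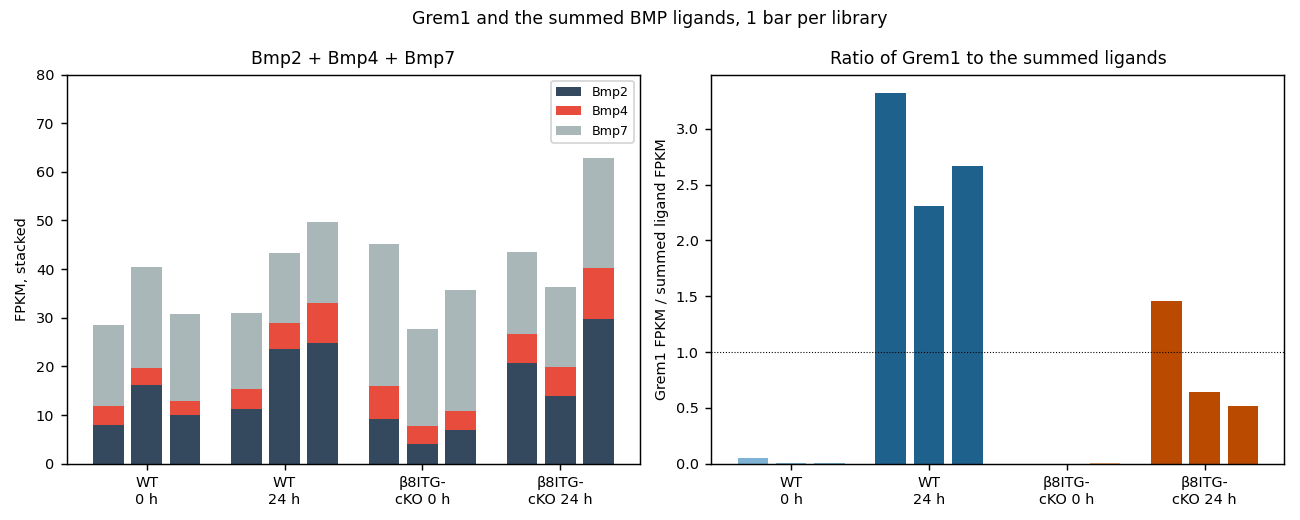
Left, FPKM of Bmp2, Bmp4 and Bmp7 stacked for each of the 12 libraries; right, Grem1 FPKM divided by that sum, with 1 bar per library and a dotted line at a ratio of 1. The summed ligands lie between 27.8 and 62.7 FPKM throughout, while the ratio is 2.30 to 3.32 in WT and 0.518 to 1.46 in β8ITG-cKO at 24 h and below 0.05 in both at 0 h.

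The Id genes can likewise be set against the E proteins they bind. The sum of Id1, Id2 and Id3 was 102, 125 and 87.8 FPKM in WT at 0 h, then 55.5, 55.9 and 43.5 FPKM at 24 h, and 66.0, 68.7 and 62.7 FPKM and then 38.2, 47.2 and 42.9 FPKM in β8ITG-cKO. The sum of the E protein genes Tcf3, Tcf4 and Tcf12 lay between 45.0 and 62.8 FPKM in all libraries. The ratio of Id to E protein transcripts was 1.77 to 2.59 in WT and 1.19 to 1.53 in β8ITG-cKO at 0 h, and 0.884 to 0.895 and 0.712 to 0.848 at 24 h, so every library at 0 h was above 1 and every library at 24 h below it. These ratios leave out Id4, at 1.67 to 5.83 FPKM, and were not tested. They describe transcripts and say nothing of the amounts of protein. Among the E protein genes, Tcf12 rose in both genotypes (log2 change 0.48 in WT, limma-trend adjusted p = 0.0257, and 0.55 in β8ITG-cKO, adjusted p = 0.00248) and Tcf3 in WT (0.61, adjusted p = 0.0350). After rescaling the WT changes were 0.23 for Tcf12 (adjusted p = 0.151) and 0.36 for Tcf3 (adjusted p = 0.117). Both WT calls were kept in 1 of the 6 fits that left out a WT library, the one without WT 24 h replicate 3. Tcf3 in β8ITG-cKO was at 16.6 to 19.3 FPKM and then at 18.6 to 21.4 FPKM and was not called. The interaction term did not call Tcf3, although its unadjusted limma-trend p was under 0.05. Tcf4, the highest of the E protein genes at 0 h, was at 16.5 to 28.0 FPKM in all libraries.

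The rest of the pathway was read from 53 further genes in 6 lists, of which 29 reached a group mean of 2 FPKM. In WT 10 of 31 tested rose over 24 h and 7 fell, with a median change of -0.06, where 20.9% of all genes tested were called higher and 8.81% lower. In β8ITG-cKO 11 of 32 rose and 8 fell, with a median of 0.08, where 35.4% were called higher and 10.7% lower. The classical antagonists Nog and Chrd, both secreted and BMP-binding, had group means of at most 0.172 and 0.424 FPKM. Crim1, a membrane protein with BMP-binding repeats, had the highest mean of the 53 at 0 h, with 293 to 302 FPKM in WT and 341 to 436 FPKM in β8ITG-cKO. It fell in both genotypes, by 0.75 on the log2 scale in WT (limma-trend adjusted p = 0.0191) and by 1.27 in β8ITG-cKO (adjusted p = 0.000202), and the WT call was lost without WT 0 h replicate 1 (0.0770) or replicate 3 (0.0538) or without WT 24 h replicate 2 (0.0549).

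Among the 19 other extracellular antagonists and modulators, 4 of 11 tested rose and 4 fell in WT, and 3 rose and 4 fell in β8ITG-cKO, to be read against the same shares of all genes. Bmper, a secreted BMP modulator, fell in both, from 3.24 to 4.64 FPKM to 0.352 to 0.986 FPKM in WT (log2 change -1.57, limma-trend adjusted p = 0.00196) and from 6.11 to 9.67 FPKM to 1.31 to 1.88 FPKM in β8ITG-cKO (-1.76, adjusted p = 0.000177). Fstl1, a secreted follistatin-like protein, fell by 0.72 in WT (adjusted p = 0.00906) and by 1.02 in β8ITG-cKO (adjusted p = 0.00194). Sostdc1, a secreted BMP and Wnt antagonist, fell in WT by 1.11 (adjusted p = 0.00286), and Twsg1, which binds BMPs together with chordin, fell in β8ITG-cKO by 0.72 (adjusted p = 0.00455). Sostdc1 in β8ITG-cKO was at 2.03 to 2.38 FPKM and then at 0.732, 1.02 and 2.63 FPKM. It was not called there, and the interaction term did not call it. In WT Twsg1 was at 28.9 to 32.9 FPKM and then at 20.6 to 25.6 FPKM. It was not called there but had an unadjusted limma-trend p under 0.05, and the interaction term did not call it. Dand5, of the same antagonist family as Grem1, rose by 0.51 in β8ITG-cKO at an adjusted p of 0.0498, a call kept in 1 of 6 fits with a library left out, the one without β8ITG-cKO 24 h replicate 1, and lost after rescaling (0.32, adjusted p = 0.150). In WT Dand5 was at 0.944 to 2.10 FPKM and then at 0.945 to 1.91 FPKM. It was not called in WT or by the interaction term.

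Within the receptors, Acvr1, another type I receptor, rose from 4.67 to 5.27 FPKM to 10.1 to 13.7 FPKM in WT (log2 change 1.16, limma-trend adjusted p = 0.00222) and from 4.27 to 5.56 FPKM to 10.2 to 11.9 FPKM in β8ITG-cKO (1.03, adjusted p = 0.000384). Acvr2b, a type II receptor, fell in both, by 0.89 in WT (adjusted p = 0.00465) and by 0.38 in β8ITG-cKO (adjusted p = 0.0168), and the second call was lost without β8ITG-cKO 0 h replicate 2 (0.0516) or replicate 3 (0.0575). The co-receptor Rgmb fell in both, by 0.54 (adjusted p = 0.0473) and 0.46 (adjusted p = 0.00779). Its WT call was kept only without WT 24 h replicate 3 of the 6 fits with a library left out. Bambi, a decoy receptor, fell in WT by 0.72 (adjusted p = 0.0264), a call kept without WT 0 h replicate 3 or WT 24 h replicate 3 and lost without each of the other 4 libraries (0.0619 to 0.0910). In β8ITG-cKO Bambi was at 1.53 to 2.39 FPKM and then at 1.32 to 2.51 FPKM and was not called. The interaction term did not call Bambi, although its unadjusted limma-trend p was under 0.05.

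The inhibitory genes parted ways, for Smad7 and Smurf1 rose where Smad6 fell. Smad7, the other inhibitory Smad, went from 7.04 to 8.61 FPKM to 12.4 to 22.6 FPKM in WT (log2 change 1.05, limma-trend adjusted p = 0.00997) and from 6.60 to 7.57 FPKM to 11.8 to 14.0 FPKM in β8ITG-cKO (0.79, adjusted p = 0.000705). Smurf1, a ubiquitin ligase of BMP Smads and receptors, rose by 1.35 in WT (adjusted p = 0.00112) and by 1.60 in β8ITG-cKO (adjusted p = 0.000105). Of the BMP-activated Smads, Smad1 and Smad5 rose in β8ITG-cKO by 0.63 (adjusted p = 0.00487) and 0.35 (adjusted p = 0.0181), neither call holding after rescaling (adjusted p = 0.0578 and 0.466). Smad5 was also lost without replicate 2 or replicate 3 of either β8ITG-cKO group (adjusted p 0.0505 to 0.0551). In WT Smad5 was at 5.85 to 6.43 FPKM and then at 5.66 to 6.93 FPKM and was not called. The interaction term did not call Smad5, although its unadjusted limma-trend p was under 0.05. In WT Smad1 was at 4.71 to 5.13 FPKM and then at 6.36 to 6.71 FPKM. It was not called there but had an unadjusted limma-trend p under 0.05, and the interaction term did not call it. Smad4, the shared partner, lay between 9.87 and 13.4 FPKM in all libraries.

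**Figure D4:**
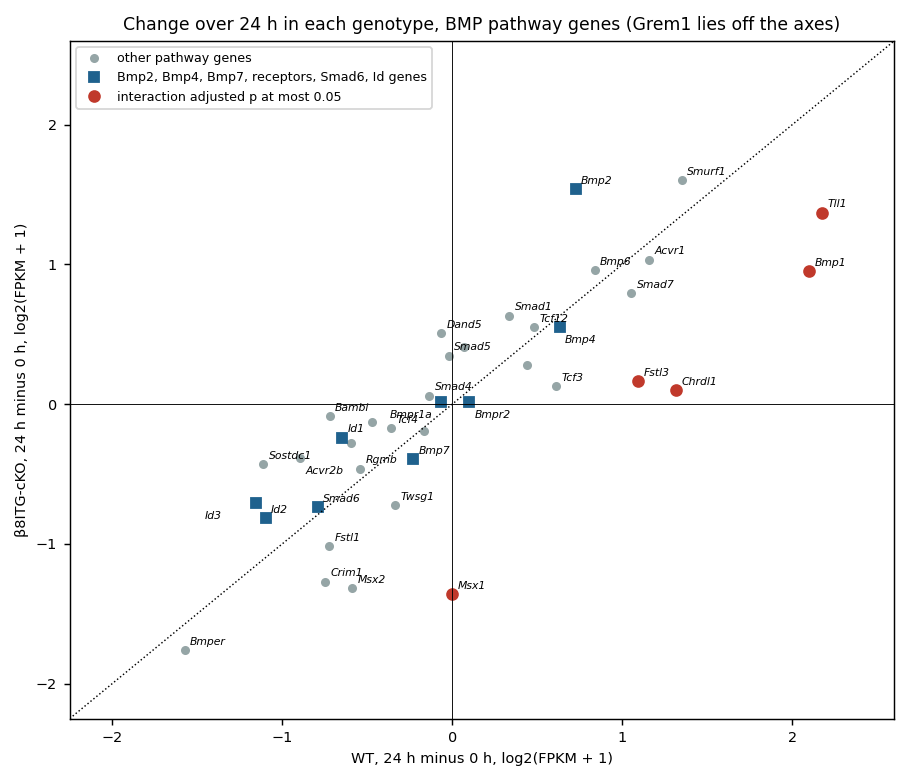
Change over 24 h in log2(FPKM + 1) in WT (horizontal) and β8ITG-cKO (vertical), with 1 point per gene, for the genes tested in both; the dotted line marks equal change, squares are the BMP ligands, receptors, Smad6 and Id genes, and red points are genes with an interaction adjusted p of at most 0.05. Most points lie near the line, Chrdl1, Fstl3, Bmp1 and Tll1 lie below it on the right, and Msx1 lies at 0.00 in WT and -1.36 in β8ITG-cKO. Grem1 lies outside the axes.

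Between the genotypes, 1 of 33 other pathway genes tested at 24 h was called higher in β8ITG-cKO and 1 lower, with a median difference of -0.09, where 5.64% of all genes were called higher and 0.644% lower. Acvr2b was at 5.51 to 6.41 FPKM in β8ITG-cKO and 2.50 to 3.22 FPKM in WT (log2 difference 0.90, limma-trend adjusted p = 0.0105), a call lost without β8ITG-cKO 24 h replicate 2 (0.0653) or replicate 3 (0.0545). Fstl3, a secreted protein that binds activins and some BMPs, was at 11.9 to 18.3 FPKM against 25.0 to 30.5 FPKM (-0.84, adjusted p = 0.0325). That call was lost without WT 24 h replicate 1 (0.0851) or replicate 2 (0.0782) and without β8ITG-cKO 24 h replicate 1 (0.117) or replicate 3 (0.108). At 0 h, 4 of 32 tested were called higher in β8ITG-cKO and none lower. By the same adjusted threshold 4.18% of all genes were called higher and 2.75% lower. At an unadjusted p under 0.05, limma-trend gave 8 of the 32 higher and 4 lower, and the share of all genes there was not counted. The 4 called were Bmp1 (log2 difference 0.88, adjusted p = 0.00914), Msx1 (1.03, adjusted p = 0.0129), Chrdl1 (0.79, adjusted p = 0.0317) and Bmper (0.83, adjusted p = 0.0362). The Bmp1 and Msx1 calls were lost without β8ITG-cKO 0 h replicate 3 alone (0.0526 and 0.0711). The Chrdl1 and Bmper calls were each kept in 1 of 6 fits with a library left out, without β8ITG-cKO 0 h replicate 2 for Chrdl1 and without β8ITG-cKO 0 h replicate 1 for Bmper. Without the filter on low values the calls of Chrdl1 (adjusted p = 0.0972), Bmper (0.109) and Msx1 (0.0522) at 0 h and of Fstl3 at 24 h (0.0686) were lost.

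The interaction term called 5 of 33 other pathway genes, all with a lower value in β8ITG-cKO than in WT, where 2.56% of all genes were called lower and 6.83% higher. With the retina marker sum as a covariate, a fit that called 1 gene in all, none of the 5 passed the test (adjusted p 0.237 to 0.422). Corneal epithelium markers (4 genes) summed to 536 to 911 FPKM in β8ITG-cKO at 0 h and 139 to 401 FPKM in the other groups. Red blood cell markers (5 genes) summed to 6.52 to 15.8 FPKM there and 36.0 to 220 FPKM in the other groups. The part of both lists in the interaction was not tested. Chrdl1, a secreted chordin-like BMP antagonist, was at 26.0, 25.3 and 26.4 FPKM in WT at 0 h, then 73.3, 59.99 and 65.4 FPKM at 24 h. In β8ITG-cKO it was at 58.5, 36.6 and 43.9 FPKM and then at 47.3, 59.0 and 41.7 FPKM, so that the times separated in WT and overlapped in β8ITG-cKO. Fstl3 was at 11.8 to 12.4 FPKM and then 25.0 to 30.5 FPKM in WT, and 11.9 to 15.4 FPKM and then 11.9 to 18.3 FPKM in β8ITG-cKO. The difference in change was -1.22 for Chrdl1 (SE 0.24, limma-trend adjusted p = 0.0118) and -0.93 for Fstl3 (SE 0.22, adjusted p = 0.0224).

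Bmp1 and Tll1 encode tolloid proteases that cleave chordin and procollagens. Bmp1 was at 24.5, 21.7 and 28.4 FPKM and then at 125, 98.4 and 106 FPKM in WT, and 48.3, 45.6 and 44.6 FPKM and then at 89.2, 88.7 and 92.3 FPKM in β8ITG-cKO. It started higher and ended lower in every β8ITG-cKO library than in any WT library. Tll1 was at 0.526 to 0.747 FPKM and then 5.94 to 6.86 FPKM in WT, and 0.807 to 1.19 FPKM and then 3.75 to 4.75 FPKM in β8ITG-cKO. Both rose in both genotypes, Bmp1 by 2.10 and 0.95 and Tll1 by 2.18 and 1.37 on the log2 scale (limma-trend adjusted p between 0.000115 and 0.000238). The difference in change was -1.15 for Bmp1 (SE 0.17, adjusted p = 0.00537) and -0.81 for Tll1 (SE 0.19, adjusted p = 0.0221).

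Msx1, a homeobox gene and BMP target, was at 8.33, 6.19 and 7.74 FPKM and then at 8.83, 6.83 and 6.62 FPKM in WT, which overlapped. In β8ITG-cKO it was at 18.5, 13.5 and 16.4 FPKM and then at 5.66, 6.76 and 4.65 FPKM, a mean 2.84-fold lower at 24 h (log2 change -1.36, limma-trend adjusted p = 0.000374). The difference in change was also -1.36 (SE 0.23, adjusted p = 0.00769). Msx2, its relative, fell in β8ITG-cKO by 1.32 (adjusted p = 0.000107), from 6.41 to 6.997 FPKM to 1.82 to 2.39 FPKM, while in WT it was at 3.47 to 5.40 FPKM and then 1.72 to 3.59 FPKM. Of the 5 interaction calls, those of Chrdl1, Bmp1 and Msx1 held with any 1 of the 12 libraries left out. That of Fstl3 was lost without WT 24 h replicate 1 (0.0504), and that of Tll1 without WT 0 h replicate 1 (0.0522), β8ITG-cKO 0 h replicate 3 (0.0527), β8ITG-cKO 24 h replicate 1 (0.0548) or replicate 2 (0.0591).

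**Figure D5:**
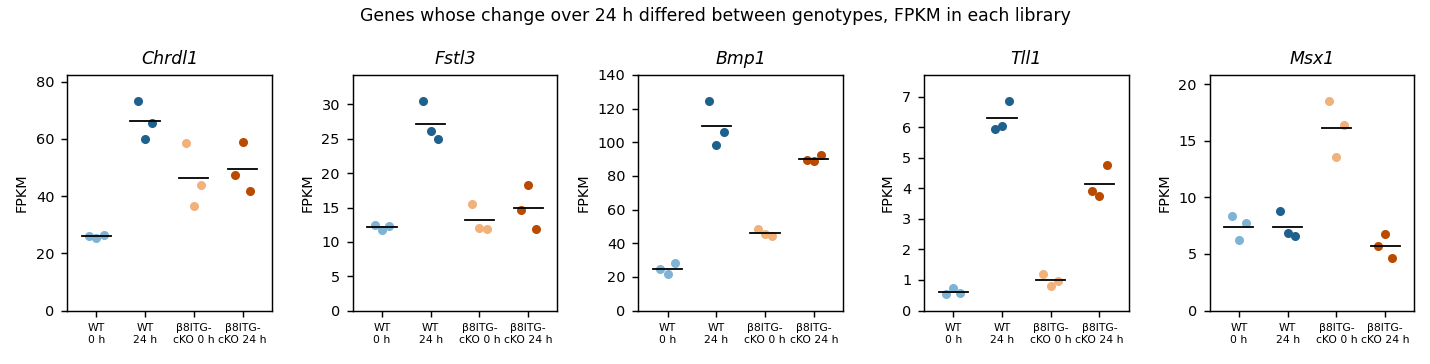
FPKM (vertical axes, from 0) of Chrdl1, Fstl3, Bmp1, Tll1 and Msx1 in each library, by group, with a line at the group mean. Chrdl1 and Fstl3 separate by time in WT and overlap in β8ITG-cKO, Bmp1 and Tll1 rise in both, and Msx1 is highest in β8ITG-cKO at 0 h, at 13.5 to 18.5 FPKM.

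The genes whose levels tracked Grem1 most closely over the 12 libraries were sought among 10880 genes averaging 2 FPKM or more, by Pearson's r of log2(FPKM + 1). They were Il13ra1, a receptor chain for interleukin 13 (r = 0.993), Lyn, a Src family kinase (0.993), Nav3 (0.992), Srgap1 (0.990), and Myo1e, a class I myosin (0.987). Il13ra1 went from a mean of 0.136 to 5.48 FPKM in WT and from 0.125 to 3.03 FPKM in β8ITG-cKO. For Id3 they were Tlk1, a nuclear kinase (0.952), the forkhead factor Foxp1 (0.944), Setbp1 (0.941), Rhou (0.925), and Rev1, a DNA polymerase (0.924), and for Id1 Gm40468 (0.893), Chst10 (0.874), Rcn2 (0.874), Dennd1b (0.872) and Rhoq (0.864). The 2 time points stand apart in these genes, so that each r mainly describes the step between them, and no test was made.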

How the data were processed

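RNA-Seq was performed by the authors on 12 libraries of lens capsules with attached LCs, prepared with a stranded total RNA kit. The submitters' processing notes name FastQC, cutadapt 1.12, TopHat2 2.1.0 and Cuffdiff 2.2.1, with mm10 and GRCm38.p5, and the deposited values are FPKM per gene and library as the authors computed them in 4 pairwise tables. The depth and the strand setting of the counting are not given in the sources used here, so opposite-strand genes at the loci of Bmp4 and Bmpr1a cannot be told apart from them. The authors' group means, fold changes and p and q values in the same tables were not used.

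Groups were taken from the labels, and the methods describe the 3 libraries of a group as biological replicates. Each pairwise comparison was fitted with limma 3.58.1 (R 4.3.3, trend on) to log2(FPKM + 1) over the 6 libraries compared, for genes averaging 0.5 FPKM or more, and the interaction over all 12, with Benjamini-Hochberg adjustment over all genes tested. The steps were tested on simulated data. An exact permutation test of 3 against 3 libraries cannot go below p = 0.1. Where groups are said not to overlap this is a description, and the share of all genes without overlap was not counted. The 10 genes, the 6 lists of other pathway genes and the tests were chosen with earlier results of these data known. The text names the 10 genes, any other listed gene with a group mean of at least 2 FPKM that was called in at least 1 comparison, the highest gene of each list, and the 5 genes most like Grem1, Id1 and Id3; Nog and Chrd were named after their values were seen. Alternatives were a pseudocount of 0.1, no filter or one of 2 FPKM, rescaling to the same median, size criteria after the study (over 2-fold, more than 2 FPKM apart), the replicate number as a block, 1 fit over all groups, each library left out and, chosen after seeing the data, the summed retina markers as a covariate. The covariate was always used in 1 fit over all groups. Promoters are from RefSeq (GRCm38.p6).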

Additional observations from a re-analysis of the deposited data

Results flagged for a closer look

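The change over 24 h differed between the genotypes by the interaction term for 5 genes of the pathway lists. On the log2 scale, β8ITG-cKO minus WT, limma-trend gave -1.22 for Chrdl1 (SE 0.24, adjusted p = 0.0118), -0.93 for Fstl3 (SE 0.22, adjusted p = 0.0224), -1.15 for Bmp1 (SE 0.17, adjusted p = 0.00537), -0.81 for Tll1 (SE 0.19, adjusted p = 0.0221) and -1.36 for Msx1 (SE 0.23, adjusted p = 0.00769). The summed retina markers moved with the same groups, and with them as a covariate the values were -1.22, -0.81, -0.70, -1.12 and -1.01 in that order (adjusted p between 0.237 and 0.422), in a fit that called 1 gene of 15262. The summed markers of corneal epithelium and of red blood cells set β8ITG-cKO at 0 h apart from the other groups, and their part was not tested.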

How the results depend on the processing

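The depth is unknown, and 3 libraries a group limit what these fits can call. Counts of called genes among the 10 in WT over time were 3 to 6 with any 1 library left out. In β8ITG-cKO over time the 5 called genes became 2 under the size criteria after the study and 3 with the retina marker sum as a covariate. At 24 h the 1 called gene became 0 without the filter on low values, with the replicate block and with the retina covariate, and 0 to 1 with a library left out. At 0 h the 2 called genes became 0 under the size criteria, without the filter and with the replicate block, 1 in 1 fit over all groups and with the retina covariate, and 0 to 2 with a library left out. The numbers did not pair the samples (correlation of same-numbered deviations -0.254 to 0.0937); under the replicate block Grem1 at 24 h had an adjusted p of 0.0550 and Id2 and Id3 at 0 h 0.0860 and 0.0680, while Bmp2 passed the test in WT (0.0446). Over all genes, calls at 0 h fell from 615 higher and 405 lower to 161 and 93 without the filter and to 138 and 131 under the block, and with the retina covariate calls at 24 h were 1 and 2 and the interaction 0 and 1; the cause was not tested.

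Signs turned, for differences that no fit called: after rescaling for Bmpr2 in WT (-0.15) and Bmpr1a (-0.26) and Bmpr2 (-0.27) in β8ITG-cKO over time; with the retina covariate at 24 h for Bmp2 (-1.11), Bmp4 (-0.27) and Bmp7 (-0.11) and in the interaction for Bmp2 (-0.67) and Id3 (-0.31); and with a pseudocount of 0.1 in the interaction for Grem1 (0.23). With 1 library left out, the ranges that crossed 0 were -0.044 to 0.061 (Bmpr1a) and -0.059 to 0.086 (Bmpr2) in β8ITG-cKO over time, -0.22 to 0.39 (Bmp2), -0.038 to 0.018 (Bmpr2) and -0.35 to 0.093 (Id1) at 24 h, and -0.32 to 0.17 (Bmp4) and -0.091 to 0.28 (Smad6) in the interaction. Under the settings that kept all libraries, 337 values of the 10 genes kept their direction and side of the threshold, 18 lost and 8 gained a call, and 9 turned sign.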
